A study of Homo sapiens with 4 samples.

Results

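The cytosolic ribosome is built from a large and a small subunit, each a scaffold of ribosomal RNA clothed in small basic proteins. The large subunit proteins (RPL genes and the acidic stalk proteins RPLP0, RPLP1 and RPLP2) surround the site of peptide bond formation and the exit tunnel, and the small subunit proteins (RPS genes, RPSA and FAU) surround the site where codons are read. Most of their messengers begin with a terminal oligopyrimidine (TOP) start, a C followed by further C or T bases, through which the TOR kinase and LARP1 set their translation, and colon epithelium, which is renewed quickly, transcribes them at high levels. The genes described here are the protein-coding rows named as RPL or RPS plus a number with an optional A, X or L and digit, together with RPLP0, RPLP1, RPLP2, RPSA and FAU. The rule found 107 rows of the 64962 in the table, with 85 names, 52 of the large and 33 of the small subunit.

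The RNA came from HT-29 cells, a human colorectal adenocarcinoma line, and from NCM460 cells, a line of normal human colon epithelium. Each line was left untreated (control) or received sturgeon chondroitin sulfate (SCS), a sulfated polysaccharide, at 100 μg/mL for 24 h. Every condition is represented by 1 library, so no difference between conditions has a replicate check. The study's methods speak of biological replicates for its experiments, and whether a library came from a single culture or a pool is not given in the sources used here. The libraries held 1654764 (HT-29 control), 1605372 (HT-29 SCS), 1347854 (NCM460 control) and 1156568 (NCM460 SCS) fragments on named genes.

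The libraries stood apart in composition. The mitochondrial genome took 35.8% of the fragments of the HT-29 control and 13.8% of HT-29 SCS, against 62.3% of the NCM460 control and 46.3% of NCM460 SCS. Protein-coding genes took 86.6%, 82.1%, 74.8% and 77.3% of the nuclear fragments in the same order. Among colon epithelial markers, 10 of 11 had fragments, with sums of 13361 and 8589 in HT-29 control and SCS and of 3385 and 2876 in NCM460 control and SCS, KRT8 being the most abundant in both HT-29 libraries and in the NCM460 control and KRT19 in NCM460 SCS. KRT20, CEACAM5, LGALS4 and VIL1 were at 0 in both NCM460 libraries, CDX2 was at 0 in both HT-29 libraries with 14 and 12 fragments in NCM460, and CDX1 was at 0 in all libraries. The mesenchymal list summed to 12, 21, 92 and 141 fragments, led by SPARC with 65 and 102 in NCM460, with COL1A2 and COL3A1 at 0. Of the blood markers, which summed to 604, 355, 0 and 0 fragments, PTPRC, CD3E and HBB were at 0 and LYZ was the most abundant, with 603 and 352 in HT-29. The part of these markers in the results was not tested. Depth and the mitochondrial share were varied as settings only, by thinning and by scaling over nuclear genes, and were not tested as causes. Thinning was to the smallest total, mitochondrial fragments included, so depth over nuclear genes stayed unequal.

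Of the 85 names, 82 had fragments. RPL3L, RPL10L and RPL39L, paralogues of RPL3, RPL10 and RPL39, were at 0 in all 4 libraries. The 82 names gave 83 loci, 50 of the large and 33 of the small subunit, because a second RPL41 locus held 1 fragment in each HT-29 library, and this locus did not reach the minimum mean of 1 CPM (counts scaled to library size, per 1e+06). The other 82 loci passed it in every comparison. In 33 loci the row carried the values of overlapping genes as well, mostly small nucleolar RNAs in introns, but also protein-coding neighbours such as SYVN1 beside FAU, and the values of these members are uncertain.

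Ribosomal protein messengers formed a larger part of the nuclear fragments in NCM460 than in HT-29, an order that was lost over all fragments, mitochondrial ones included, with 3.59%, 4.67%, 2.64% and 4.55% in HT-29 control, HT-29 SCS, NCM460 control and NCM460 SCS. They took 5.59% of nuclear fragments in the HT-29 control (exact Clopper-Pearson 95% interval 5.55 to 5.63), 5.42% in HT-29 SCS (5.38 to 5.46), 7.02% in the NCM460 control (6.95 to 7.09) and 8.47% in NCM460 SCS (8.40 to 8.54). These and all later intervals cover counting error only. The large subunit held 3.41%, 3.34%, 4.27% and 5.14%, and the small subunit 2.18%, 2.08%, 2.75% and 3.33%, so both subunits were ordered alike, lowest in HT-29 SCS and highest in NCM460 SCS. Over protein-coding fragments, a denominator added after the values had been seen, the shares were 6.45%, 6.60%, 9.38% and 10.96%, and the HT-29 libraries changed places. Pseudogenes of these genes added 86, 115, 165 and 189 fragments.

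**Figure D1:**
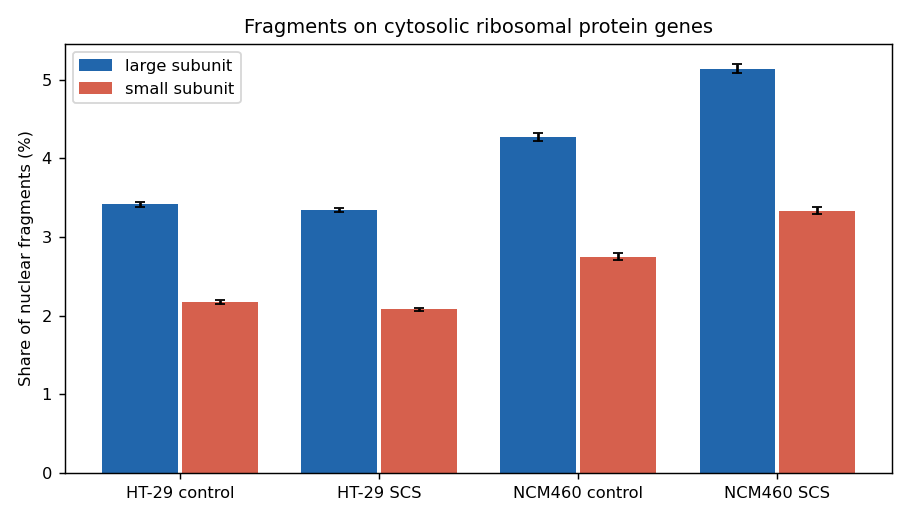
Share of nuclear fragments on large and small subunit genes in the 4 libraries, in percent, with exact 95% counting intervals as bars. The highest bars are those of NCM460 SCS, 5.14% for the large and 3.33% for the small subunit.

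Levels between genes were compared by the deposited FPKM (fragments per kilobase of transcript, scaled to library size). RPS2, a small subunit protein near the entry of the messenger, had the highest mean, with 1561, 1268, 6580 and 4169 FPKM in HT-29 control, HT-29 SCS, NCM460 control and NCM460 SCS. RPS27, RPL41, RPL8 and RPL13 followed. RPL8 had 755, 612, 3286 and 1677 FPKM, and RPS27 1363, 2053, 2002 and 2541. RPS2 and RPL8 were thus highest in the NCM460 control, and RPS27 was highest in NCM460 SCS.

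The first question was whether SCS altered these messengers in the cancer line. A gene was called when its log2 fold change of scaled CPM passed 1.5-fold and its counting interval excluded 0. By the deposited FPKM a call needed the 1.5-fold change alone, without an interval. Counts and shares called by FPKM, here and later, therefore follow a looser rule. In HT-29 cells the ribosomal protein genes lay close together, with a median log2 fold change of 0.13 for SCS over control, a range from -0.63 to 0.69, and 58 of 82 above 0. By the deposited FPKM the median was -0.076, beside -0.096 for all genes. Of the 82, 3 were called higher and 2 lower, or 3.66% and 2.44%, against 16.8% and 14.8% of all 12168 genes tested. The medians were 0.11 for the large and 0.15 for the small subunit, and 0.07 for all genes. In bulk RNA, fewer cells of a kind and less RNA per cell cannot be told apart.

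By total counts only, 18 members were called higher and 0 lower in HT-29, with a median of 0.41 beside 0.31 for all genes, of which 24.9% and 8.81% were called. With shared rows left out, 0 of 49 were called higher and 1 lower. Among those called by scaled CPM, RPS13 went from 234 to 380 CPM, a log2 fold change of 0.69 (95% interval 0.54 to 0.86). FAU, which encodes a ubiquitin-like protein fused to a small subunit protein, went from 127 to 201 CPM, a log2 fold change of 0.66 (0.44 to 0.89). RPL10, which joins the large subunit late in its assembly, went from 539 to 834 CPM, a log2 fold change of 0.63 (0.52 to 0.74). On the other side stood RPL7L1, a paralogue of RPL7, with 92.9 and 59.5 CPM and a log2 fold change of -0.63 (-0.97 to -0.32). RPL7A, at -0.36, was not called. The calls of RPS13, FAU and RPL10 were lost by the deposited FPKM, that of RPL10 also with a trend on expression subtracted, and that of RPL7L1 by total counts only and after thinning to the smallest library. RPS13, FAU and RPL10 are among the loci whose row is shared with other genes.

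Other genes of protein synthesis had ranges of their own in HT-29, where 16.8% of all genes were called higher and 14.8% lower. Among those named here and later, the rows of BOP1, LTV1, EEF1G, EEF2, EIF3L, TPT1, RPS6KB1, MRPL42, MRPS6 and RACK1 are shared with other genes, and their values are uncertain. The 77 mitochondrial ribosomal proteins, which serve the organelle's own ribosome, had a median log2 fold change of -0.42, with 1 called higher and 27 lower, or 1.30% and 35.1%. MRPL27 was lowest with 51 fragments in the control and 22 under SCS, or -1.33 on the log2 scale, and MRPL55 had 26 and 59, or 0.89. The 32 ribosome assembly genes had a median of -0.46, with 13 called lower and 0 higher, or 40.6% lower. BOP1, which acts in large subunit processing, counted 76 and 20 fragments, or -2.00, and POLR1D, shared by RNA polymerases I and III, had 112 and 186, or 0.49. The 16 other genes with TOP messengers had a median of 0.20 and none was called, from EEF1G at -0.28 to EIF3E at 0.58. Of 14 genes of TOR and TOP control 3 were called higher, or 21.4%, led by DDIT4, an inhibitor of TOR complex 1, which counted 22 and 242 fragments, or 3.08, while LARP1 stood lowest at -0.48. Of the ribosomal proteins outside the name rule, RPL36AL was called higher at 0.93, while RACK1, listed as GNB2L1, was not called at 0.32.

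**Figure D2:**
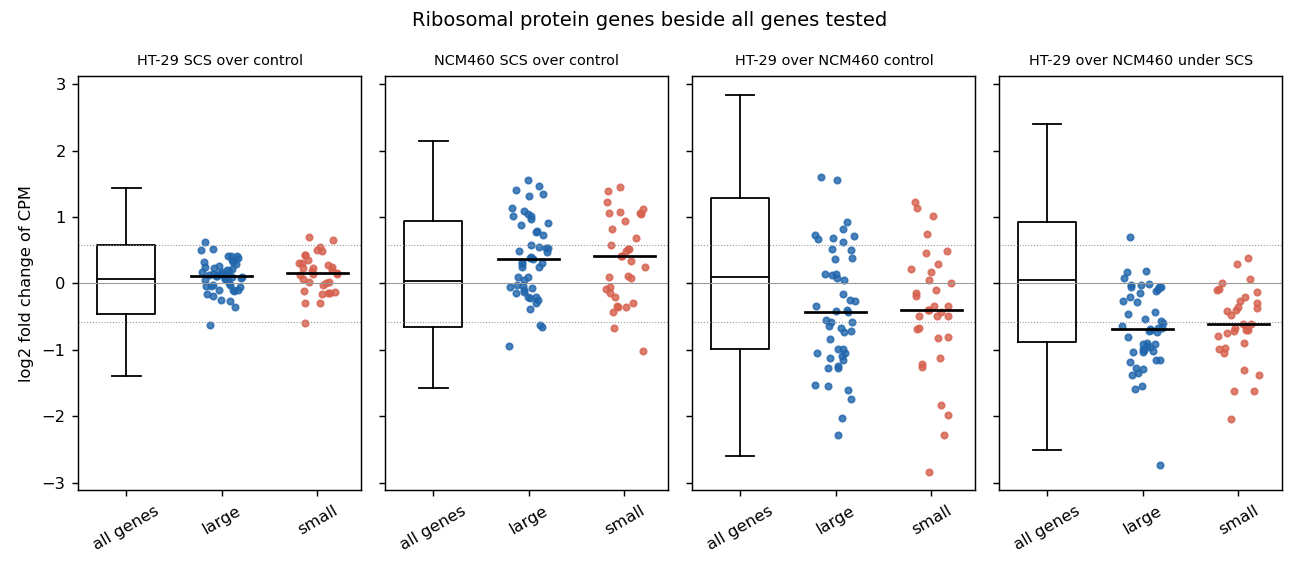
log2 fold change of CPM in the 4 comparisons for large and small subunit genes (points, with the median as a line) and for all genes tested (box of quartiles, whiskers from the 5th to the 95th percentile). Dotted lines mark 1.5-fold. The points of SCS over control in HT-29 lie between -0.63 and 0.69.

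The same question in the normal line gave a wider picture. In NCM460 cells 26 of 82 members were called higher under SCS and 5 lower, or 31.7% and 6.10%, against 15.4% and 13.8% of the 12657 genes tested. The median log2 fold change was 0.37, with a range from -1.02 to 1.56, beside 0.03 for all genes. By the deposited FPKM it was 0.038, beside -0.27 for all genes. By fold alone, 16 were then called higher and 10 lower, against 22.3% and 36.8% of all genes. By total counts only it was 1.07, beside 0.65, with 62 and 0, against 32.6% and 2.05%, and with a trend on expression subtracted 0.66, beside -0.067, with 44 and 2, against 13.3% and 12.3%. The large subunit had a median of 0.36, with 15 called higher and 3 lower, and the small subunit 0.41, with 11 and 2. The difference between the lines in their SCS values was not tested.

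RPL17, which lines the exit tunnel, was the highest, with 131 CPM in the control and 387 under SCS, a log2 fold change of 1.56 (95% interval 1.25 to 1.89). RPL7 had 191 and 530 CPM, or 1.46 (1.21 to 1.74). RPS27L, the paralogue of RPS27 and a known target of p53, rested on 7 and 29 fragments, or 1.45 (0.35 to 3.01). At the other end RPS15, in the head of the small subunit, had 782 and 384 CPM, or -1.02 (-1.21 to -0.84), RPL28 had 1080 and 562 CPM, or -0.94 (-1.09 to -0.79), and RPS28 had 408 and 257 CPM, or -0.66 (-0.90 to -0.43). The call of RPL17, whose row is shared with C18orf32 and 3 small nucleolar RNAs, held in each alternative setting that includes that row (it is absent where shared rows are left out), and that of RPL7 in all but a GC trend taken from longest transcripts. The calls of RPS15 and RPL28 were lost by total counts only and with a GC trend subtracted, that of RPS28 also after thinning, with the other trends and by FPKM, and that of RPS27L with GC and length trends. By total counts only the value of RPS28 also changed sign. The row of RPL28 is shared with MIR6805, which makes its value uncertain.

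**Figure D3:**
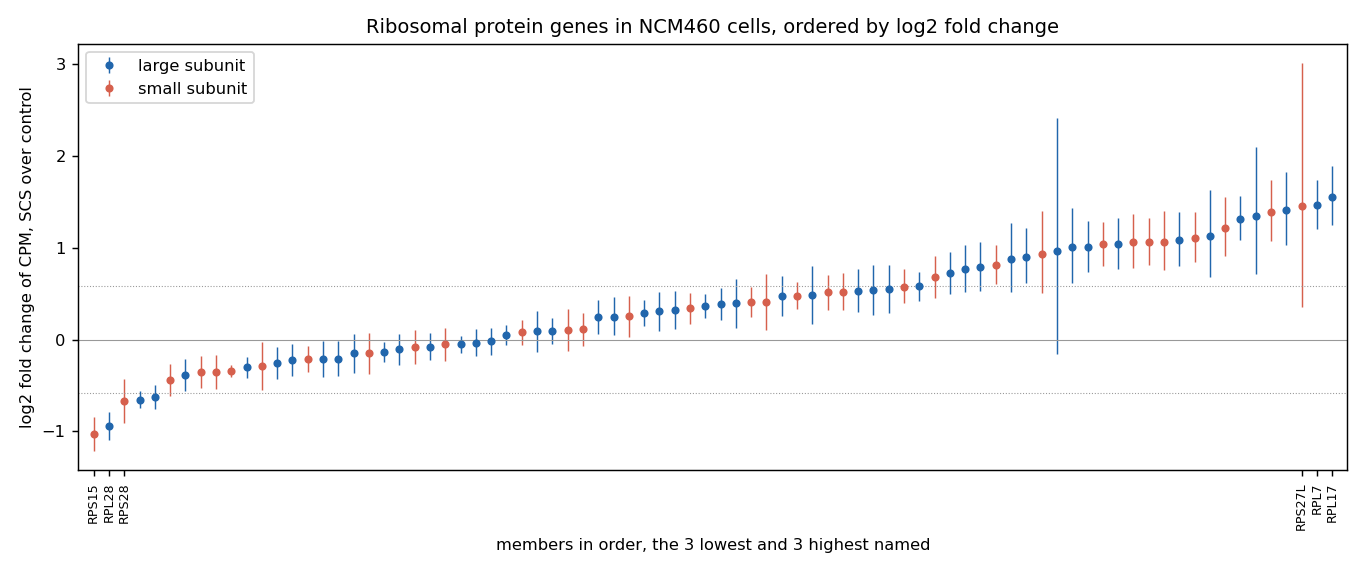
log2 fold change of CPM, SCS over control, for each of the 82 members in NCM460 cells, in order along the x axis, with exact 95% counting intervals and dotted lines at 1.5-fold. The 3 lowest and 3 highest are named, and the order runs from RPS15 at -1.02 to RPL17 at 1.56.

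In NCM460 the members' values went with the base composition of their transcripts. Members with a GC content up to 47.6% had a median log2 fold change of 0.89, with 17 of 28 called higher and 0 lower, beside a median of 0.91 for all genes of that range, with 1723 of 5321 called higher and 44 lower. Members above 47.6% and up to 51.9% had a median of 0.46, with 9 of 26 called higher and 0 lower. All genes of that range had a median of 0.026, with 149 of 1762 called higher and 130 lower. Members above 51.9% had a median of -0.22, with 0 of 28 called higher and 5 lower, beside -0.59 for all genes of that range, with 63 of 5501 called higher and 1567 lower. Spearman's rho of log2 fold change with GC content was -0.73 across the 82 members and -0.64 across 12584 genes of these same libraries, where genes do not count as replicates. Across the members in HT-29 it was 0.13, and across 12092 genes there it was -0.12. With the GC content of each gene's longest transcript the NCM460 values were -0.67 and -0.63. With a smooth trend on GC content subtracted, the median of the members in NCM460 was 0.35, RPS15 was at -0.34, RPL17 at 0.88 and RPL7 at 0.62. Of the 82, 19 were then called higher and 0 lower, against 5.60% and 5.96% of all genes. With longest transcripts the median was 0.22, beside -0.014 for all genes, with 17 higher and 2 lower, against 5.70% and 6.22%. Members were short, with a median transcript of 835 bases against 2840 for the genes tested in HT-29, while their median GC content of 49.0% lay beside 49.1%.

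**Figure D4:**
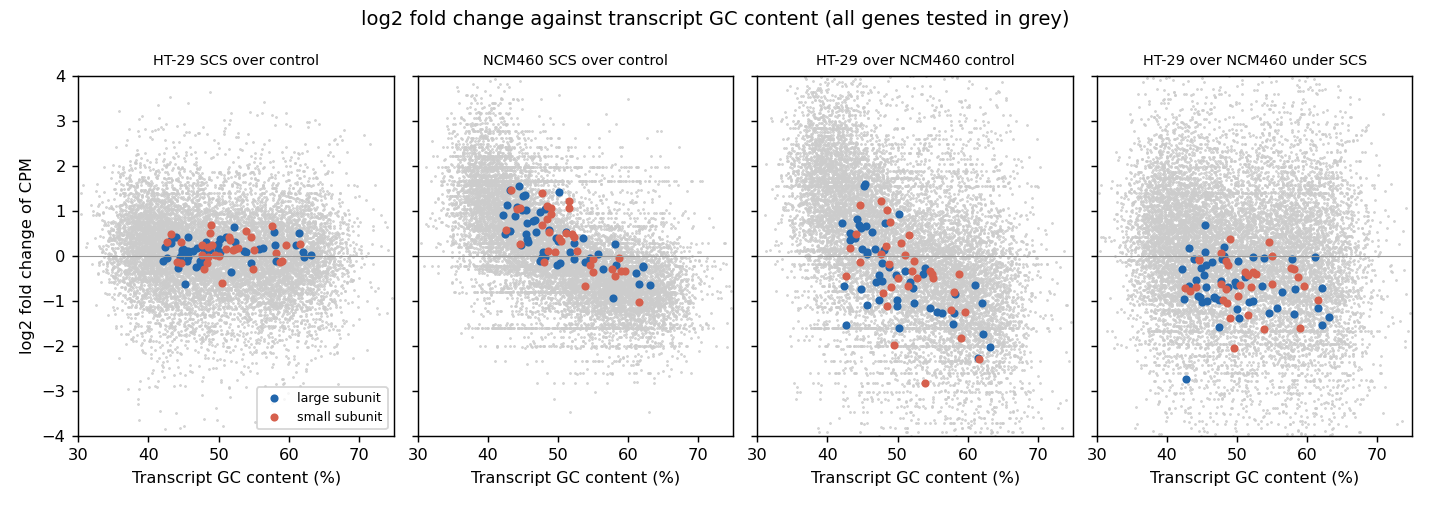
log2 fold change of CPM against transcript GC content, in percent, for large and small subunit genes and, in grey, all genes tested, in the 4 comparisons (values beyond -4 or 4 and GC contents outside 30 to 75% are not drawn). In NCM460 cells the members fall from left to right with a rho of -0.73.

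Other lists in NCM460 cells are to be read against the 15.4% of all genes called higher and 13.8% lower. Of the 16 other TOP messengers 9 were called higher and 2 lower, with a median log2 fold change of 0.62, from EIF3F at -0.72 to EIF3E, with 41 and 197 fragments, at 1.77. The ribosome assembly list had 8 called higher and 5 lower of 32, from POLR1A at -1.13 to LTV1, with 2 and 21 fragments, at 2.43 (0.89 to 6.06), though its row is shared with PHACTR2, ZC2HC1B and others and the value cannot be assigned to LTV1. Of the mitochondrial ribosomal proteins 12 were called higher and 11 lower, or 15.6% and 14.3%, close to the shares of all genes. Those with a mean of at least 5 CPM ran from MRPS18A at -1.20 to MRPL42 at 2.54, and the lowest of the whole list was at -1.55. Of the TOR and TOP control list 5 of 14 were called lower and 0 higher, from RPTOR, the scaffold of TOR complex 1, at -1.55 to RPS6KB1 at 0.81. RACK1 at -0.20 and RPL36AL at 0.02 were not called. These values and calls are without subtraction of a GC trend. After it, the TOR list's median moved from -0.56 to -0.15, and that of the other TOP messengers from 0.62 to 0.26. The assembly list's median rose from 0.15 to 0.32, and the mitochondrial list's went from 0.11 to -0.045.

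The next question was how the cancer and the normal line differed before treatment. Without SCS, 32 of 82 members were called lower in HT-29 and 13 higher, or 39.0% and 15.9%, against 23.1% and 25.3% of 12691 genes. The median log2 fold change of HT-29 over NCM460 was -0.41, beside 0.10 for all genes, with -0.42 for the large and -0.40 for the small subunit. By total counts only the median was 0.68 and that of all genes 1.12, so the members' median stayed below that of all genes while the direction turned, with 46 called higher and 7 lower, against 50.7% and 8.87% of all genes. With a trend on expression subtracted it was 0.056, beside -0.0048, with 22 and 18, against 21.5% and 25.6%. With a trend on length subtracted it was -0.15, beside -0.019, with 19 and 26, against 21.0% and 24.9%. By FPKM it was -0.71, beside -0.34, with 5 higher and 47 lower, against 24.9% and 43.2%.

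RPS28 (ENSG00000233927, chromosome 19 from 8321158 to 8323340) was the lowest in HT-29, with 56.2 CPM against 408 in NCM460, a log2 fold change of -2.83 (95% interval -3.18 to -2.55). RPS15 had 159 and 782 CPM, or -2.29 (-2.49 to -2.10). RPL23, which can bind the p53 regulator MDM2, was the highest, with 575 and 189 CPM, or 1.60 (1.36 to 1.86). RPL7L1 followed at 1.55 (0.97 to 2.27) and RPS24, mutated in some families with Diamond-Blackfan anaemia, at 1.22 (0.92 to 1.56). GC content again went with the values, with a rho of -0.60 across the members and -0.51 across 12633 genes, and 19 of the 28 members above 51.9% were called lower, beside 2215 of 5517 genes of that range. Members up to 47.6% had a median of 0.26, with 9 of 28 called higher and 5 lower. All genes of that range had a median of 1.06, with 2315 of 5343 called higher and 323 lower. With the trend subtracted, the median of the members was -0.44, beside 0.013 for all genes. Of the 82, 7 were then called higher and 30 lower, against 18.7% and 18.8% of all genes. RPS28 was then at -2.48, RPS15 at -1.42 and RPL23 at 0.97. The calls of RPS28, RPS15, RPL23 and RPL7L1 held in every setting tried, and that of RPS24 was lost by FPKM and with a GC trend from longest transcripts.

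Under SCS most members were lower in HT-29, though by total counts only their median was 0.010, beside 0.63 for all genes, with 16 called higher and 12 lower, against 40.0% and 12.3% of all genes. Of 82, 47 were called lower and 1 higher, or 57.3% and 1.22%, against 22.4% and 24.2% of 13050 genes, and 74 had a log2 fold change below 0. The median was -0.67, beside 0.05 for all genes, with -0.68 for the large and -0.62 for the small subunit. With a trend on length subtracted it was -0.47, with 31 called lower and 2 higher, against 23.4% and 22.9% of all genes. With a trend on expression subtracted it was -0.52, with 36 and 2, against 24.1% and 22.1%. Here rho with GC content was -0.15 across the members, and the median with the trend subtracted was -0.60. RPL23, at 0.69 (0.54 to 0.86), was the member called higher, a call lost by FPKM, followed by RPS13 at 0.38, which was not called.

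RPL22L1 was the lowest under SCS, with 21.2 CPM in HT-29 and 148 in NCM460, a log2 fold change of -2.73 (-3.29 to -2.34). RPSA, the laminin receptor precursor as well as a small subunit protein, had 246 and 1014 CPM, or -2.04 (-2.19 to -1.90), and its value without SCS was -1.98. RPS28 was at -1.62 (-1.90 to -1.37). The 2 comparisons of HT-29 with NCM460 use separate libraries, and each shares its libraries with the comparisons of SCS with control. Among other lists under SCS, to be read against the 22.4% of all genes called lower and 24.2% higher, 17 of 32 assembly genes were called lower and 2 higher, from BOP1 at -3.54 to RRN3 at 0.87, 29 of 77 mitochondrial ribosomal proteins lower and 4 higher, from MRPL11 at -2.18 to MRPS6 at 1.76, and 6 of 16 other TOP messengers lower and 1 higher, from EIF3L at -1.29 to TPT1 at 1.09. Of the TOR and TOP control list 6 of 14 were called higher and 1 lower, from EIF4EBP1 at -1.62 to SESN2 at 2.23. Without SCS, where 23.1% of all genes were called lower and 25.3% higher, each of these lists held calls in both directions. Of the assembly list 9 were called lower and 8 higher, from BOP1 at -2.21 to RRN3 at 2.79, and of the mitochondrial list 19 and 14, from MRPL10 at -2.28 to MRPL35 at 2.63. Of the other TOP messengers 5 were called lower and 5 higher, from EEF2 at -2.02 to TPT1 at 1.76, and of the TOR list 5 and 3, from DDIT4 at -3.85 to LARP1 at 1.20.

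A fit with a test was possible over all 4 libraries, in a model of cell line plus treatment that assumes the same SCS response in both lines and leaves 1 residual degree of freedom. The prior degrees of freedom were estimated as infinite, so the p-values rest on a spread pooled over genes and not on that of each gene. With 1 library per condition, this spread comes from how far the SCS values differed between the lines. A spread between cultures cannot be told apart from it. By edgeR's quasi-likelihood test with Benjamini-Hochberg adjustment over 12942 genes, 10 members were lower in HT-29 and 0 higher, against 8.21% and 8.0% of all genes. With a GC trend of the line difference as an offset 6 members were called, beside 1533 of all 12942 genes in either direction. In the fit without that offset RPSA had a log2 difference of -2.01 (adjusted p = 0.00107), RPS2 -1.73 (adjusted p = 0.00108), RPS28 -2.24 (adjusted p = 0.00117) and RPL8 -1.69 (adjusted p = 0.00376). RPL22L1, RPL36, RPS15, RPL38 and RPLP0 were among the others. RPS2 shares sequence with its pseudogene RPS2P5, which held 33, 24, 143 and 137 fragments, so its value is uncertain. The rows of RPSA, RPS2, RPL8 and RPL36 are shared with other genes, which makes their values uncertain too. For SCS shared by both lines, edgeR called 0 members at an adjusted p of 0.05 and 0 at an unadjusted p under 0.05, and DESeq2 called 0 and 0. Of all 12942 genes, 695 had an unadjusted p under 0.05 by edgeR and 230 by DESeq2, and at an adjusted p of 0.05 edgeR called 0.0309% higher and 0.0386% lower.

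Proteins with known further roles differed among themselves. The stalk proteins, which recruit elongation factors, were not called for SCS in either line. RPLP0 had 946, 846, 2112 and 2044 CPM in HT-29 control, HT-29 SCS, NCM460 control and NCM460 SCS, RPLP1 579, 565, 853 and 833, and RPLP2 309, 327, 643 and 540. All 3 stood higher in both NCM460 libraries than in either HT-29 library, an order that turned for RPLP1 in both comparisons of the lines when scaled by total counts and, without SCS, also with a trend on expression subtracted, and for RPLP2 without SCS when scaled by total counts. RPL5 and RPL11, which with 5S ribosomal RNA can bind MDM2, had 298, 290, 282 and 467 CPM and 301, 375, 182 and 376 CPM, and both were called higher under SCS in NCM460, at 0.72 and 1.04. RPS6, the protein phosphorylated by the S6 kinases, had 345, 425, 467 and 699 CPM, with log2 fold changes for SCS of 0.30 in HT-29 and 0.58 in NCM460, neither called. RPS27A, made as a fusion with ubiquitin, had 380, 342, 172 and 362 CPM and was called higher in NCM460 at 1.07. With the GC trend subtracted, the NCM460 values were 0.20 for RPL5, 0.82 for RPL11, -0.32 for RPS6 and 0.41 for RPS27A, and the calls of RPL5 and RPS27A were lost. These calls were also lost by FPKM and with a GC trend from longest transcripts, and with the latter RPL5 changed sign. The rows of RPL5 and RPLP2 are shared with small nucleolar RNAs, which makes their values uncertain.

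By FPKM the paralogues RPL7L1, RPS27L and RPL26L1 stood below the genes they resemble in every library, and RPL22L1 in 3 of 4. RPL22L1 had 29.4, 33.4, 149 and 175 FPKM and RPL22 136, 104, 139 and 182, so by FPKM the paralogue was above its partner in the NCM460 control. By fragments it was below its partner there, with 52 against 129, and the transcripts had 2190 and 2078 bases. RPL7L1 had 22.5, 14.3, 13.9 and 24.0 FPKM against 251, 249, 289 and 569 for RPL7. RPS27L had 17.3, 21.0, 17.1 and 36.5 against 1363, 2053, 2002 and 2541 for RPS27, and RPL26L1 9.55, 6.43, 25.7 and 34.1 against 615, 612, 799 and 1508 for RPL26. In NCM460 cells RPL22L1, RPL7L1 and RPS27L were called higher under SCS, at 1.13, 1.35 and 1.45, and RPL26L1, with 8 and 23 fragments, was not. With the GC trend subtracted they were at 0.24, 0.78 and 0.63, and of these calls only that of RPL7L1 held.

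**Figure D5:**
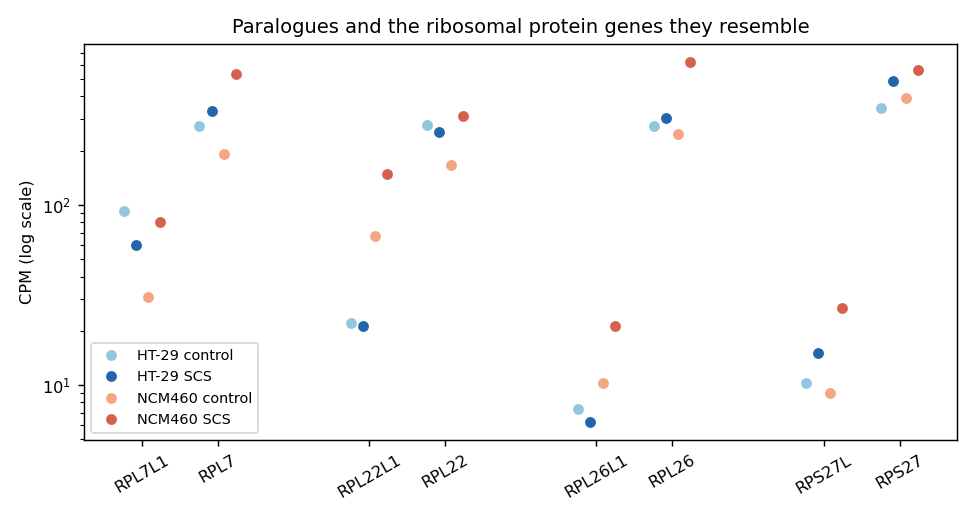
CPM on a log scale in the 4 libraries for 4 paralogues and the genes they resemble. RPL22L1 stands at 21.2 CPM in HT-29 SCS and at 148 CPM in NCM460 SCS.

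The starts of these genes share a feature that the rule did not use. Promoter windows from RefSeq (GRCh38.p14) were found for 67 of 82 names. A C followed by at least 4 bases that are each C or T lay at the annotated start in 48 of 67 genes (71.6%), against 5.14% of all 27305 genes, and began within 10 bases of it on either side in 59 (88.1%), against 38.4%. The share within 10 bases was 87.8% for the large and 88.5% for the small subunit. Only the strand of the gene was searched. The windows show 15 bases before the start and 15 from it on, with the pyrimidine run in capitals, for members the results turn on, among them the highest and the lowest for SCS in NCM460 (RPL17 and RPS15), and for the paralogues, of which RPL22L1 carries a run at its start. RPL26L1 has 2 annotated starts.
RPS6 (chr9:19380222-19380251, minus strand): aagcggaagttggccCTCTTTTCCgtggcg
RPLP0 (chr12:120201097-120201126, minus strand): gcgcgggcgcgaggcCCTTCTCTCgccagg
RPSA (chr3:39406705-39406734, plus strand): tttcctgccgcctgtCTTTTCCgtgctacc
RPS28 (chr19:8321481-8321510, plus strand): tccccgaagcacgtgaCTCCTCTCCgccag
RPL22 (chr1:6199581-6199610, minus strand): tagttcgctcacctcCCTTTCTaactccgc
RPL22L1 (chr3:170870181-170870210, minus strand): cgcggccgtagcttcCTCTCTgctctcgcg
RPS27 (chr1:153990747-153990776, plus strand): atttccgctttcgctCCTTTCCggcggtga
RPS27L (chr15:63157463-63157492, minus strand): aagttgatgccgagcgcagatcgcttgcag
RPL7L1 (chr6:42879601-42879630, plus strand): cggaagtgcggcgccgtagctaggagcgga
RPL26L1 (chr5:172958714-172958743, plus strand): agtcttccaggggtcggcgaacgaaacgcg
RPL26L1 (chr5:172958865-172958894, plus strand): ggcggggcggcggccacaaacccgcaggca
RPL17 (chr18:49492451-49492480, minus strand): cctctttccctaagcagcctgaggtgagtg
RPS15 (chr19:1438381-1438410, plus strand): tgcgcaggcgcggaccaaagcgatCTCTTC
In RPS28 the run begins 1 base after the annotated start and in RPS15 9 bases after it. RPS27L, RPL7L1, RPL26L1 and RPL17 have no such run beginning within 10 bases of the starts given, and the pyrimidines in the RPL17 window begin farther upstream. Whether a TOP start went with the SCS response was not tested.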

How the data were processed

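The authors prepared total RNA, sequenced it on an Illumina instrument and deposited scaled fragment counts (unit signal) and FPKM per gene. Per the labels, bcl2fastq 2.17.1.14, cutadapt 1.9.1, Bowtie2, HTSeq 0.6.1 and hg19 were named, while 93.5% of loci had the GRCh38 coordinates of GENCODE release 29. Whether counting used strand is not given in the sources used here. The values of each deposited count column were multiples of 1 step, at least 99.99% of them whole within 0.1, so the tests ran on recovered fragments. Adjacent rows with the same values were merged into 18650 loci, and 26 unnamed rows (at most 0.0943% of fragments) were left out. Libraries were scaled by TMM (edgeR 4.0.16, prior count 2), genes with a mean of at least 1 CPM were compared, and trends were lowess fits (span 0.3). DESeq2 1.42.0, other scalings, filters and trends were alternatives. GC content and length are medians over a gene's principal transcripts. They were first taken from its longest transcript, and the definition was changed after values of both the longest-transcript version and an earlier analysis of these data had been seen. Results with longest transcripts are given beside them.
Named members were the 3 highest and 3 lowest per comparison with a mean of at least 10 CPM, the paralogues, stalk proteins, RPS6, RPL5, RPL11, RPSA, RPS27A, FAU and the 5 highest by FPKM, and of other lists the extremes at 5 CPM. Some genes that this rule names are not reported here. Other members named were picked once their values were known. The members and lists were chosen with earlier results of these data known. The comparisons and the fit were tested on simulated data, and the outcome is not reported here.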

Additional observations from a re-analysis of the deposited data

Results flagged for a closer look

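RPL7L1 was called in opposite directions by SCS in the 2 cell lines, with a log2 fold change of -0.63 in HT-29 cells and 1.35 in NCM460 cells. Looking for members called in opposite directions was decided after values had been seen. The difference between the lines was not tested, and each value rests on 1 library per condition. The HT-29 call was lost by total counts only and after thinning.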

How the results depend on the processing

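With 1 library per condition, these values cover settings of the processing and no spread between cultures. The cause of each change was not tested. Calls by the deposited FPKM used the 1.5-fold limit alone, without a counting interval. By total counts only, where the median of all genes moved to 0.31, 0.65, 1.12 and 0.63, the members' median was 0.41 for SCS in HT-29 (18 called higher, 0 lower, against 24.9% and 8.81% of all genes), 1.07 for SCS in NCM460 (62 and 0, against 32.6% and 2.05%), 0.68 for HT-29 over NCM460 without SCS (46 and 7, against 50.7% and 8.87%), which turned its direction, and 0.010 under SCS (16 and 12, against 40.0% and 12.3%), which turned too. By the deposited FPKM (pseudocount 1), where the median of all genes moved to -0.096, -0.27, -0.34 and -0.26, the members' median was -0.076 for SCS in HT-29, turned, with 1 called higher and 1 lower (17.4% and 25.5% of all genes), 0.038 for SCS in NCM460 with 16 and 10 (22.3% and 36.8% of all genes), -0.71 between the lines without SCS with 5 higher (24.9%), and -0.84 under SCS with 0 higher (23.9%).

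With a trend on expression subtracted, the median was 0.66 for SCS in NCM460 (44 called higher, 2 lower, against 13.3% and 12.3% of all genes) and 0.056 between the lines without SCS (22 and 18, against 21.5% and 25.6%), which turned, and 2 were called higher under SCS (22.1%). With a trend on length, 2 were called lower for SCS in NCM460 (15.9% of all genes), and the medians between the lines were -0.15 without SCS (all genes -0.019) and -0.47 under SCS (2 higher, 31 lower, against 22.9% and 23.4%). With a trend on GC content, 5 were called higher and 1 lower for SCS in HT-29 (14.6% and 15.9% of all genes), 19 higher and 0 lower for SCS in NCM460 (5.60% and 5.96%), and 7 higher between the lines without SCS (18.7%). With trends from longest transcripts, chosen after seeing the data, the GC trend gave 17 called higher and 2 lower for SCS in NCM460 (5.70% and 6.22% of all genes) and 5 higher between the lines without SCS (18.6%), and the length trend 2 lower for SCS in NCM460 (15.9%) and, under SCS, a median of -0.44 with 2 higher (22.6%).

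Without shared rows, which left 49 members, 0 of 49 were called higher and 1 lower for SCS in HT-29 (16.8% and 14.8% of all genes), 17 and 2 for SCS in NCM460 (15.4% and 13.8%), and 17 and 27 lower between the lines without and under SCS (23.1% and 22.4%). After thinning to the smallest library (seed 1), 5 were higher and 0 lower for SCS in HT-29 (15.2% and 12.7% of all genes) and 2 lower for SCS in NCM460 (10.9%). The share of fragments in HT-29 control, HT-29 SCS, NCM460 control and NCM460 SCS was 3.59%, 4.67%, 2.64% and 4.55% of all fragments, 2.76%, 2.70%, 3.08% and 4.12% of nuclear fragments without shared rows, and 6.45%, 6.60%, 9.38% and 10.96% of protein-coding nuclear fragments, a denominator chosen after seeing the data.

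In the model of line plus treatment, 10 members were called on cell line by edgeR, 14 by DESeq2, 8 without a filter on low counts and 6 with a GC trend as an offset, beside 2099, 789, 1816 (of 18650) and 1533 of all genes. DESeq2's size factors, scaling over nuclear genes, a prior count of 0.5, a minimum of 5 CPM, no filter and protein-coding genes only kept each median's direction and each count of members within 1.5 times.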
